A study of Mus musculus with 12 samples.

Results

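Heat shock chaperones and their transcriptional regulator were followed in mouse liver across 4 groups of C57BL/6 mice that differed in vendor and in housing. The genes were taken by symbol from a list of 10 names, and all 10 were found among the 23909 genes of the expression table. They are the inducible Hsp70 genes Hspa1a and Hspa1b, the Hsp110 gene Hsph1, the Hsp40 gene Dnajb1, the constitutive Hsp70 gene Hspa8, the inducible cytosolic Hsp90 gene Hsp90aa1, the small heat shock protein gene Hspb1, the mitochondrial chaperonin pair Hspd1 and Hspe1, and Hsf1, which encodes the regulator itself. All 10 passed the filter on low values (1 RPKM or more in 3 or more libraries), as did 12058 genes in all. RPKM values are reads divided by gene length and by library size, so levels can be compared between genes per unit of length.

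The mice came from Jackson (JAX) or Taconic (TAC) and were kept for 4 weeks with mice of their own vendor or of the other one. The JAX and TAC groups lived with their own kind. CoJAX mice were Jackson mice kept with Taconic mice, and CoTAC mice were Taconic mice kept with Jackson mice. Every group held 3 liver libraries, and all 12 share the strain name C57BL/6 with no substrain, allele or drug named. The series is about the gut microbiota that mice of each vendor carry and the RNA of their livers. The microbes themselves are not analysed here. The labels give no age, sex, cage or clock time, and do not say that each library came from its own animal. The p-values thus describe only the variation among these 12 libraries, which may be technical in part.

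Heat shock proteins are chaperones that bind unfolded polypeptides and help them fold, keep them soluble or pass them on for degradation. Heat and other stresses that unfold proteins release HSF1 from chaperones, after which it forms trimers and binds heat shock elements, inverted repeats of GAA, in the promoters of chaperone genes. In liver, the same genes are also known to follow body temperature and feeding over the day, and the inducible Hsp70 genes have the widest range of all.

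Depth, read from the steps between low RPKM values, came to an estimated 1520000 to 3760000 reads per library. Relative to JAX 1, depth spanned 0.758 to 1 among JAX libraries, 0.794 to 1.75 among TAC, 1.09 to 1.88 among CoJAX and 1.59 to 1.84 among CoTAC. The JAX libraries and TAC 1 were the shallowest, and the CoTAC libraries were all deep. Long transcripts also had relatively higher values in CoTAC and lower values in JAX, with a slope of log2 deviation on log2 transcript length of 0.136 to 0.171 in CoTAC and -0.155 to -0.136 in JAX. The liver label held, since all 6 hepatocyte markers were listed above 0 in every library and summed to 2236 to 4753 RPKM. Albumin, Alb, stood at 512 to 1152 RPKM, which corresponds to 1.74 to 1.94 estimated reads per base in every library, and values close to that common upper level are compressed. Rank correlations between libraries were 0.951 to 0.968 (Spearman).

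By level, Hspa8 was the most abundant of the 10, with a mean of 473 RPKM over the 12 libraries, and 1.58% of the tested genes lay above it. Hspe1 followed at a mean of 315 RPKM, then Hspd1 at 233 RPKM, Hsp90aa1 at 178 RPKM and Hspb1 at 156 RPKM. These 5 genes lay well above the others. Hsph1 averaged 48.8 RPKM, Dnajb1 41.2 RPKM, Hsf1 20.8 RPKM, Hspa1b 18.4 RPKM and Hspa1a 2.27 RPKM. The order of the means differed by group, with Dnajb1 (40.9 RPKM) above Hsph1 (25.1 RPKM) in JAX and Hspa1b (37.6 RPKM) above Hsf1 (21.0 RPKM) in TAC. Variation was ordered differently. The highest library exceeded the lowest 22.7 times for Hspa1a, 8.97 times for Hspa1b and 4.03 times for Hsph1, against 1.38 times for Hspd1 and 1.54 times for Hsf1. The coefficient of variation over the 12 libraries was 84.2% for Hspa1a and 73.9% for Hspa1b, and the median over all tested genes was 23.6%. Hspa8 stood at 44.4% to 80.8% of the Alb level and Hspe1 at 33.9% to 48.0%, so differences of these abundant members can be understated. The upper level is also lower in RPKM in deeper libraries, so differences between groups of unlike depth can be altered by it. Relative to Alb, Hspa8 was at 44.4% to 49.6% in JAX and 60.1% to 73.5% in TAC. It was at 61.7% to 80.8% in CoJAX and 61.8% to 63.9% in CoTAC. On that scale all 4 groups overlapped for Hspe1.

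**Figure D1:**
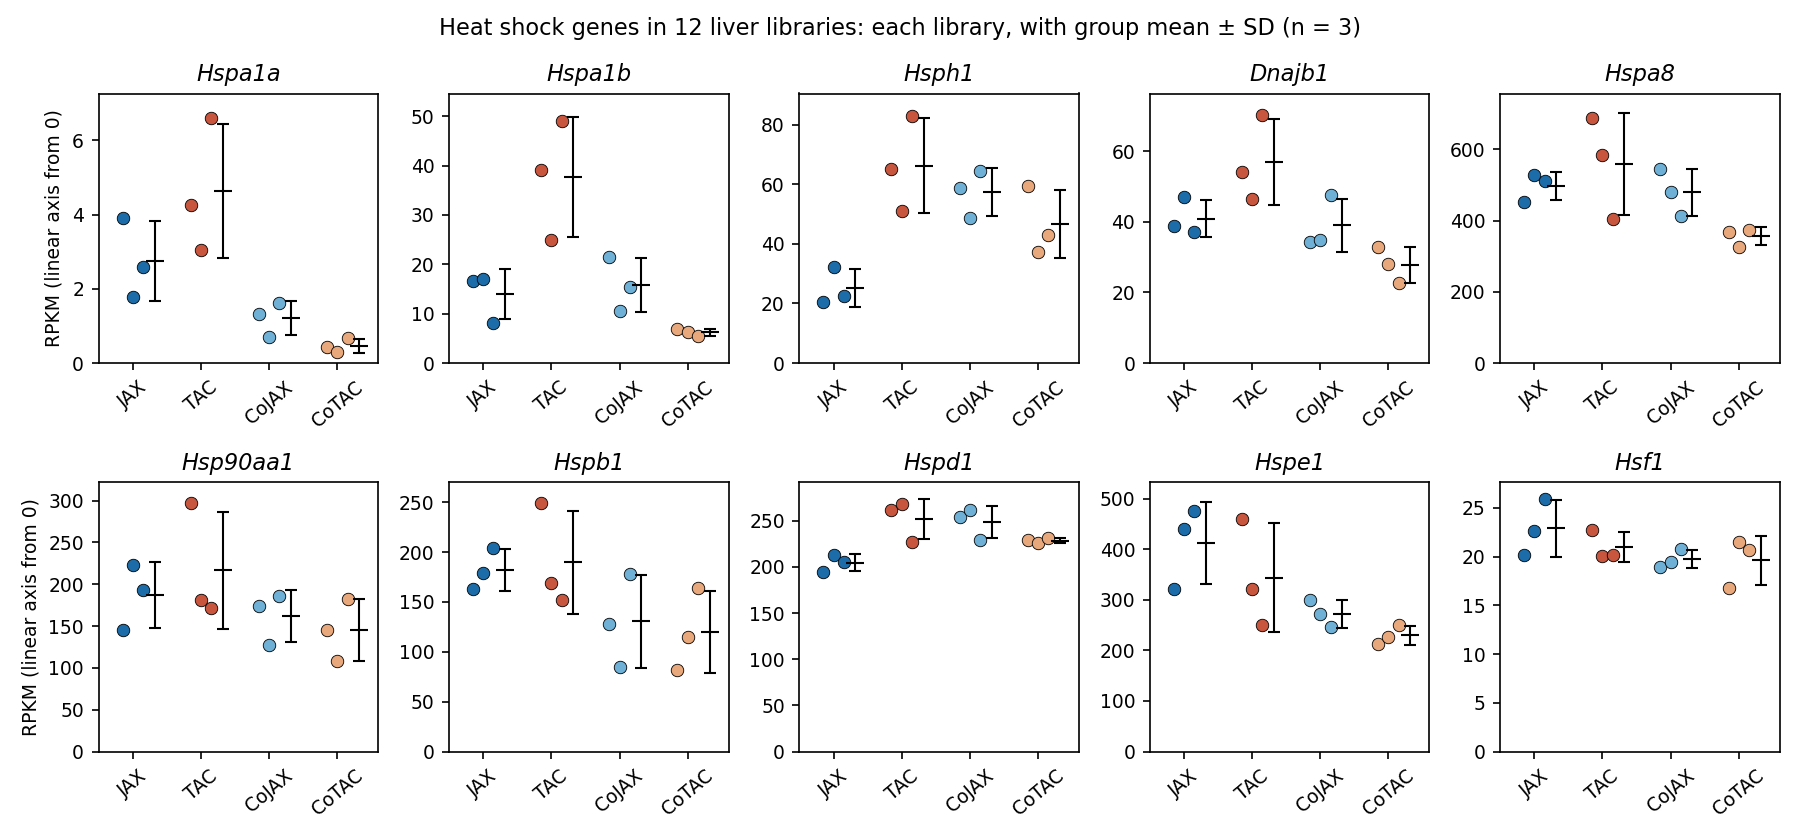
RPKM of each of the 10 genes in each of the 12 liver libraries on linear axes that start at 0, by group, with the group mean ± SD (n = 3) as a bar beside the points. Hspa1a and Hspa1b have their highest group mean in TAC and their lowest in CoTAC. Hsph1 is lowest in the 3 JAX libraries, and Hsf1 stays between 16.8 and 25.9 RPKM.

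The promoters of the genes that the results turn on are given first, from RefSeq on the build GRCm38.p6, as windows of 250 bases before to 50 bases after an annotated start. The table held windows for 7 of the 10 genes (Hspa8, Hsp90aa1 and Hsf1 not matched), and where a gene had more than 1 annotated start, 1 window is shown. Hspa1a and Hspa1b lie near each other on chromosome 17 and are shown because both passed the test between CoTAC and TAC. Hsph1 and Hspe1 are shown as a gene that differed from that pair and as one side of the promoter region that Hspe1 and Hspd1 share. Capitals mark matches to the short heat shock element forms GAANNTTC and TTCNNGAA, each of which reads the same on both strands, and overlapping matches run together.
Hspa1b, chr17:34959189-34959488, minus strand: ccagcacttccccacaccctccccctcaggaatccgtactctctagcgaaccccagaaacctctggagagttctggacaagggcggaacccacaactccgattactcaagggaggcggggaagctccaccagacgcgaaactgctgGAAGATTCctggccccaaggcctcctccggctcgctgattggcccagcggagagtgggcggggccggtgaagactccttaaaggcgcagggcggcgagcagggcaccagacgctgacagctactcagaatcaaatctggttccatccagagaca
Hspa1a, chr17:34972107-34972406, minus strand: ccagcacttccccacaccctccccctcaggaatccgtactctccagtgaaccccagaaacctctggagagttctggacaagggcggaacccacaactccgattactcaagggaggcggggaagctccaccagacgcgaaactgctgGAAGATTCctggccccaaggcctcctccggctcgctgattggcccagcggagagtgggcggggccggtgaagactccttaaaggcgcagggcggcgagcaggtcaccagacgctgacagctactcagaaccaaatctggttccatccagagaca
Hsph1, chr5:149636287-149636586, minus strand: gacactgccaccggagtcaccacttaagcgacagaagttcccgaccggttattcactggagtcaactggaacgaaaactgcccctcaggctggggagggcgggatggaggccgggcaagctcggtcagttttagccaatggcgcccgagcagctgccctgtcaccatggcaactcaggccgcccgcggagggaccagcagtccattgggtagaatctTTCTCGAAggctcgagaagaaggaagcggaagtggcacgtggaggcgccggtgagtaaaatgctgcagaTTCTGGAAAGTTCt
Hspe1, chr1:55087898-55088197, plus strand: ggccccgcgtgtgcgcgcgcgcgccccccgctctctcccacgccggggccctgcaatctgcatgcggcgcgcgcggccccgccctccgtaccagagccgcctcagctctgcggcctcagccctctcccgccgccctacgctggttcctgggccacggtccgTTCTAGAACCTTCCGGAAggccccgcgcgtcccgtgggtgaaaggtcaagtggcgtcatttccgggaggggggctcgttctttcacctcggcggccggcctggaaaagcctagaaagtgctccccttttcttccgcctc

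The windows of Hspa1a and Hspa1b were identical at 296 of 300 positions (98.7%), with 1 unbroken identical run of 201 bases from position -203 to position -3 counted from the start site. Each holds 1 match to GAANNTTC, at position -104, inside that run. The Hsph1 window holds TTCNNGAA at position -33 and, at position 37 after the start, a longer match with 1 more unit, TTCNNGAA followed by NNTTC. Hspe1 and Hspd1 are transcribed away from each other on chromosome 1, their windows overlap by 285 bases, and the run in capitals in the Hspe1 window matches both long forms, TTCNNGAA followed by NNTTC and GAANNTTC followed by NNGAA. The long forms are reverse complements of each other, so both strands were covered. The 7 genes have 10 windows between them, of which 7 held a short form, as did 15.1% of all 32851 windows. A long form was found in 4 of the 10, from Hsph1, Hspe1 and Hspd1, and in 0.603% of all windows. The windows of Hsph1 overlap and hold the same long match. The Hspe1 window and the Hspd1 window with a long form read the same stretch on opposite strands. The 4 windows are thus not separate finds, and these shares were not tested. Hspb1 held GAANNTTC at positions -117 and -97, and the windows of Dnajb1 held none of these letters. A match describes the letters in a window and was not tested for binding.

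The inducible Hsp70 genes Hspa1a and Hspa1b encode near-identical proteins that are scarce in unstressed cells and are made in quantity after heat. Hspa1b was measured at 16.7, 17.1 and 8.18 RPKM in the 3 JAX libraries and at 39.0, 24.9 and 49.0 RPKM in TAC. It was 21.5, 10.6 and 15.5 RPKM in CoJAX and 6.89, 6.36 and 5.46 RPKM in CoTAC. Every TAC library lay above every library of the other 3 groups and every CoTAC library lay below them all, while JAX and CoJAX overlapped. The group means were 37.6 ± 12.1 RPKM (SD, n = 3) in TAC, 15.9 ± 5.45 in CoJAX, 14.0 ± 5.02 in JAX and 6.24 ± 0.722 in CoTAC. Of the neighbours in that order, CoJAX and JAX did not differ beyond their spread.

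Hspa1a was far lower in level and shared with Hspa1b its low end in CoTAC. It stood at 3.92, 1.78 and 2.58 RPKM in JAX and at 4.26, 3.04 and 6.60 RPKM in TAC. It stood at 1.31, 0.701 and 1.61 RPKM in CoJAX and at 0.426, 0.290 and 0.672 RPKM in CoTAC. The JAX and TAC libraries overlapped, both lay above all CoJAX libraries, and the CoJAX libraries lay above all CoTAC libraries. In estimated reads this is 19 to 69 per TAC library, and 4, 3 and 6 in CoTAC, so the low end of Hspa1a rests on few reads. Of the stretches of 50 bases in the Hspa1a transcript, 66.3% occur in another gene, 58.8% in Hspa1b, and the ratio of Hspa1b to Hspa1a ran from 3.17 to 21.9 among libraries. Reads of the pair can therefore have been split by the authors' counting, and the sum of both does not depend on that split between them. The sum was 16.7 ± 5.24 RPKM in JAX, 42.3 ± 13.9 in TAC, 17.1 ± 5.75 in CoJAX and 6.70 ± 0.593 in CoTAC (SD, n = 3).

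Dnajb1, the Hsp40 that delivers substrates to Hsp70 and stimulates its ATPase, shared the high and the low end of the Hsp70 pair in a smaller range. Its values were 38.8, 46.9 and 37.0 RPKM in JAX and 54.2, 46.4 and 70.3 RPKM in TAC. They were 34.4, 35.0 and 47.5 RPKM in CoJAX and 32.7, 28.2 and 22.6 RPKM in CoTAC. All CoTAC libraries lay below those of the other 3 groups, TAC 3 was the highest library for Dnajb1 as for both Hsp70 genes, and the other 3 groups overlapped.

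Hsph1 encodes Hsp110, the nucleotide exchange factor that resets Hsp70 between rounds of binding. It was measured at 20.6, 32.3 and 22.5 RPKM in JAX and at 65.0, 50.8 and 82.9 RPKM in TAC. It was 58.6, 48.8 and 64.6 RPKM in CoJAX and 59.5, 37.4 and 42.8 RPKM in CoTAC. All 3 JAX libraries lay below the other 9, and TAC, CoJAX and CoTAC overlapped. Hsph1 thus separated JAX from the rest, where Hspa1b separated TAC and CoTAC and Hspa1a separated CoTAC. The group means, from the highest, were 66.2 ± 16.1 RPKM in TAC, 57.3 ± 7.96 in CoJAX, 46.6 ± 11.5 in CoTAC and 25.1 ± 6.29 in JAX (SD, n = 3). None of its 50-base stretches occurs in another gene.

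Hspa8, Hsp90aa1 and Hspb1 are the abundant cytosolic members. Hspa8, the Hsc70 that folds new proteins and uncoats clathrin vesicles, stood at 454, 529 and 511 RPKM in JAX, 688, 584 and 404 in TAC, 545, 480 and 414 in CoJAX and 370, 327 and 372 in CoTAC. The CoTAC libraries were the 3 lowest of the 12, and the other groups overlapped. Hsp90aa1, the inducible Hsp90 that matures kinases and steroid receptors, ran from 109 RPKM in CoTAC 2 to 298 RPKM in TAC 1, and all 4 groups overlapped. Hspb1, a small heat shock protein that holds unfolded proteins in solution, ran from 81.4 RPKM in CoTAC 1 to 249 RPKM in TAC 1, again with overlap of all groups. TAC 1 was the highest library for Hspa8, Hsp90aa1 and Hspb1, and TAC 3 the highest for the Hsp70 pair, Dnajb1 and Hsph1. Of the 50-base stretches, 74.8% of Hspa8, 58.5% of Hsp90aa1 and 51.7% of Hspb1 occur in other annotated genes, so their values are uncertain to the extent that reads were shared out.

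Hspd1 and Hspe1 encode the Hsp60 ring and the Hsp10 lid of the mitochondrial chaperonin, which enclose imported proteins while they fold. Hspd1 was 195, 213 and 206 RPKM in JAX and 262, 268 and 227 RPKM in TAC. It was 254, 262 and 229 RPKM in CoJAX and 229, 225 and 231 RPKM in CoTAC. The JAX libraries were the 3 lowest, by a small margin. Hspe1 was 321, 440 and 476 RPKM in JAX and 460, 322 and 249 RPKM in TAC. It was 299.7, 271 and 246 RPKM in CoJAX and 213, 227 and 250.2 RPKM in CoTAC, so that the JAX libraries overlapped with TAC and lay above all CoJAX and CoTAC libraries.

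The 2 genes of 1 promoter region thus did not run in parallel. The ratio of Hspe1 to Hspd1 was 2.01 ± 0.335 in JAX, 1.35 ± 0.355 in TAC, 1.10 ± 0.0748 in CoJAX and 1.01 ± 0.0778 in CoTAC (SD, n = 3). The 4 shallowest libraries, the 3 of JAX and TAC 1, had the 4 highest ratios, 1.65 to 2.31, and the other 8 lay between 0.929 and 1.20. Their longest annotated transcripts differ in length, 774 nucleotides for Hspe1 and 2423 for Hspd1, and 44.8% of the 50-base stretches of each occur in other genes. The part of depth, transcript length and shared sequence in this ratio was not tested.

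**Figure D2:**
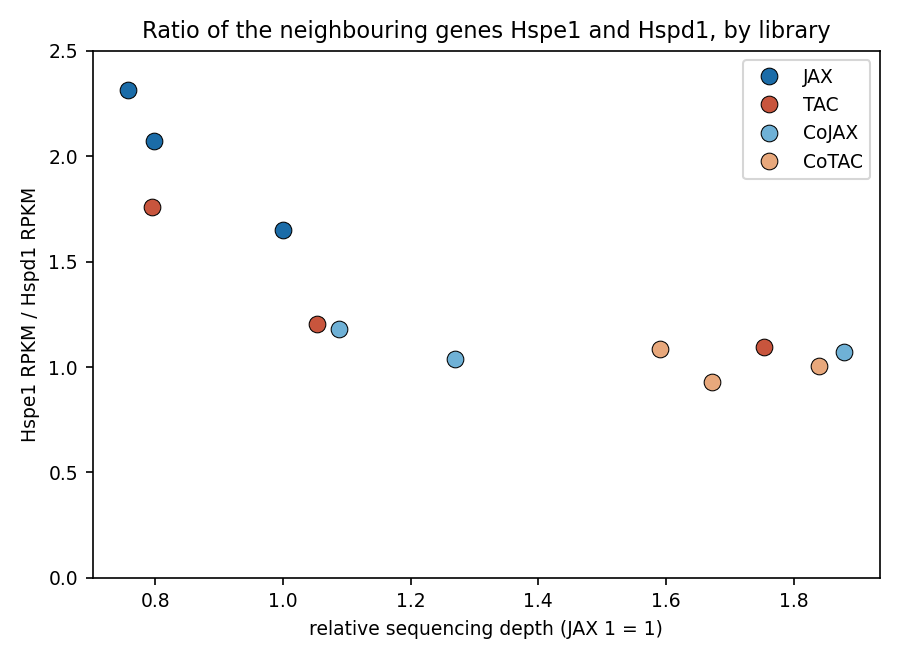
Ratio of Hspe1 RPKM to Hspd1 RPKM in each library (vertical axis, from 0) against sequencing depth relative to JAX 1 (horizontal axis), coloured by group. The 4 shallowest libraries, JAX 1 to 3 and TAC 1, lie at 1.65 to 2.31, and the other 8 lie between 0.929 and 1.20.

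Hsf1, the regulator, was 20.1, 22.7 and 25.9 RPKM in JAX and 22.8, 20.1 and 20.2 RPKM in TAC. It was 19.0, 19.5 and 20.7 RPKM in CoJAX and 16.8, 21.5 and 20.7 RPKM in CoTAC. All groups overlapped, and the group means lay between 19.6 and 22.9 RPKM. The RNA of Hsf1 does not report the activity of its protein, which is set after translation.

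Between vendors kept apart, TAC against JAX, Hspa1b and Hsph1 were higher in TAC. Mean Hspa1b was 2.69 times and mean Hsph1 2.63 times the JAX level, and Hspa1a and Dnajb1, at 1.68 and 1.39 times, overlapped with JAX and did not pass. All differences were tested with 1 limma-trend fit on log2(RPKM + 0.5) over the 12 libraries, with Benjamini-Hochberg adjustment over all 12058 genes and a threshold of 0.05. On this scale changes of low genes are understated. Hsph1 rose by 1.38 ± 0.22 (log2, SE; adjusted p = 0.0197) and Hspa1b by 1.42 ± 0.32 (adjusted p = 0.0376). Hspd1 was at 0.30 ± 0.10 (adjusted p = 0.0999), Dnajb1 at 0.46 ± 0.19 (adjusted p = 0.146) and Hspa1a at 0.65 ± 0.34 (adjusted p = 0.244), none past the threshold. The other 5 lay between -0.29 and 0.19. So 2 of the 10 were called, both higher, against 4.09% of all tested genes called in either direction and 2.38% called higher. Groups did not overlap for 3 of the 10, Hspa1b, Hsph1 and Hspd1, and for 26.2% of all genes. The median difference of the 10 was 0.24 and that of all genes -0.01.

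Neither call held under every alternative. Hsph1 passed under 20 of 24, at 1.20 to 1.57. It did not pass without JAX 1 (1.25, adjusted p = 0.054), JAX 3 (1.31, adjusted p = 0.0719) or TAC 3 (1.20, adjusted p = 0.0665), nor with only the JAX and TAC libraries in the fit (adjusted p = 0.0718). Hspa1b passed under 11 of 24, at 1.08 to 1.68. Without JAX 1, JAX 2 or JAX 3 it was 1.57, 1.59 or 1.08, without TAC 2 or TAC 3 it was 1.68 or 1.20, and without CoJAX 3, CoTAC 1 or CoTAC 3 it was 1.42, with adjusted p-values of 0.0504 to 0.129 over these 8 removals. With depth as a covariate Hspa1b was at 1.28 ± 0.37 (adjusted p = 0.0987). In that fit Hspa8 (0.39 ± 0.06, adjusted p = 0.0204) and Hspd1 (0.39 ± 0.06, adjusted p = 0.0241) passed, as did Hsph1.

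Jackson mice kept with Taconic mice, CoJAX against JAX, had more Hsph1 than Jackson mice kept apart, 2.28 times on the means. Hsph1 rose by 1.19 ± 0.22 (log2, SE; adjusted p = 0.00671), with no overlap of the groups. It was the 1 call among the 10. In this comparison 24.1% of all tested genes were called and 12.7% of all tested genes were called higher, so 1 of 10 does not stand out from this background. Another 3 members did not overlap between the groups and missed the threshold, Hspa1a at -0.92 ± 0.34 (adjusted p = 0.0669), Hspe1 at -0.58 ± 0.21 (adjusted p = 0.0618) and Hspd1 at 0.28 ± 0.10 (adjusted p = 0.0688). With Hsph1 that makes 4 of 10 without overlap, against 43.7% of all genes. Hspa1b, at 0.19 ± 0.32 (adjusted p = 0.692), was not measurably different, with a ratio of the means of 1.13. The median of the 10 was -0.14 and that of all genes -0.01. The Hsph1 call held without each library in turn and was lost with depth as a covariate (1.04 ± 0.29, adjusted p = 0.0871), a fit in which 39 of all genes passed in place of 2911. Hspd1 passed in that fit instead (0.42 ± 0.07, adjusted p = 0.0409). JAX was the shallowest group, and its relative depths (0.758 to 1) did not overlap with those of CoJAX (1.09 to 1.88). Depth and group are therefore closely tied in this comparison.

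Taconic mice kept with Jackson mice, CoTAC against TAC, had less of the inducible Hsp70 RNA and of its Hsp40 partner than Taconic mice kept apart. Hspa1b fell from a mean of 37.6 to 6.24 RPKM, 6.04 times lower, and Hspa1a from 4.63 to 0.463 RPKM. Dnajb1 fell from 57.0 to 27.8 RPKM, 2.05 times lower. On the log2 scale the differences were -2.45 ± 0.32 for Hspa1b (SE; adjusted p = 0.00853), -2.38 ± 0.34 for Hspa1a (adjusted p = 0.0162) and -1.02 ± 0.19 for Dnajb1 (adjusted p = 0.0352). For Hspa1a the size depends on the constant added before the logarithm, -3.06 with 0.1 and -1.91 with 1. These 3 of 10 members were called, all lower, where 0.647% of all tested genes were called and 0.274% were called lower. Because 58.8% of the 50-base stretches of Hspa1a occur in Hspa1b, the calls of this pair need not be separate finds. The sum of the pair, 42.3 ± 13.9 RPKM in TAC and 6.70 ± 0.593 in CoTAC (SD, n = 3), was not fitted. Hspa1a, Hspa1b, Dnajb1 and Hspa8 did not overlap between groups, 4 of 10 against 26.4% of all genes. Relative to Alb, Hspa8 did overlap, at 60.1% to 73.5% in TAC and 61.8% to 63.9% in CoTAC.

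The other 7 did not pass. Hspa8 was at -0.62 ± 0.19 (adjusted p = 0.108), Hspb1 at -0.69 ± 0.29 (adjusted p = 0.179), Hsp90aa1 at -0.56 ± 0.25 (adjusted p = 0.198), Hspe1 at -0.54 ± 0.21 (adjusted p = 0.161) and Hsph1 at -0.50 ± 0.22 (adjusted p = 0.192), and Hspd1 and Hsf1 at -0.14 and -0.10. All 10 differences were negative and 8 had an unadjusted p under 0.05, as had 2964 of 12058 genes. The median of the 10 was -0.59 and that of all genes 0.00. Signs were not negative for all under each scaling: Hspd1 was at 0.18 under quantile normalization, and 8 of 10 were negative when small RNA genes were left out and the libraries rescaled, which moved the median of all genes to 0.21. Without CoTAC 1, 9 of 10 were negative.

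The calls between CoTAC and TAC rested on the spread of few libraries. Hspa1a and Hspa1b each passed under 20 of 24 alternatives and Dnajb1 under 13. Without TAC 1 the differences were -2.40, -2.40 and -1.04 for Hspa1a, Hspa1b and Dnajb1 (adjusted p = 0.0723, 0.0565 and 0.115), and without CoTAC 3 they were -2.53, -2.37 and -0.88 (adjusted p = 0.0554, 0.0554 and 0.145), so that 0 of the 10 passed in each case. Without CoTAC 1 Hspa1b alone passed, with Hspa1a at -2.36 (adjusted p = 0.0508) and Dnajb1 at -1.14 (adjusted p = 0.0606). Dnajb1 also missed the threshold without JAX 1, JAX 3 or TAC 2, at -1.02, -1.02 and -1.15 (adjusted p = 0.0534, 0.051 and 0.0562). Without TAC 3, the library with the most Hspa1b, the differences were -2.11, -2.24 and -0.85 and all 3 passed, with Hspa8 (-0.83, adjusted p = 0.0229) and Hspe1 (-0.75, adjusted p = 0.0338) past the threshold as well. With only the TAC and CoTAC libraries in the fit 0 of the 10 and 1 of all genes passed. With depth as a covariate, Hspa1b was -2.63 ± 0.40 (adjusted p = 0.0584), Hspa1a -2.73 ± 0.38 (adjusted p = 0.0463) and Dnajb1 -1.26 ± 0.19 (adjusted p = 0.0619).

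**Figure D3:**
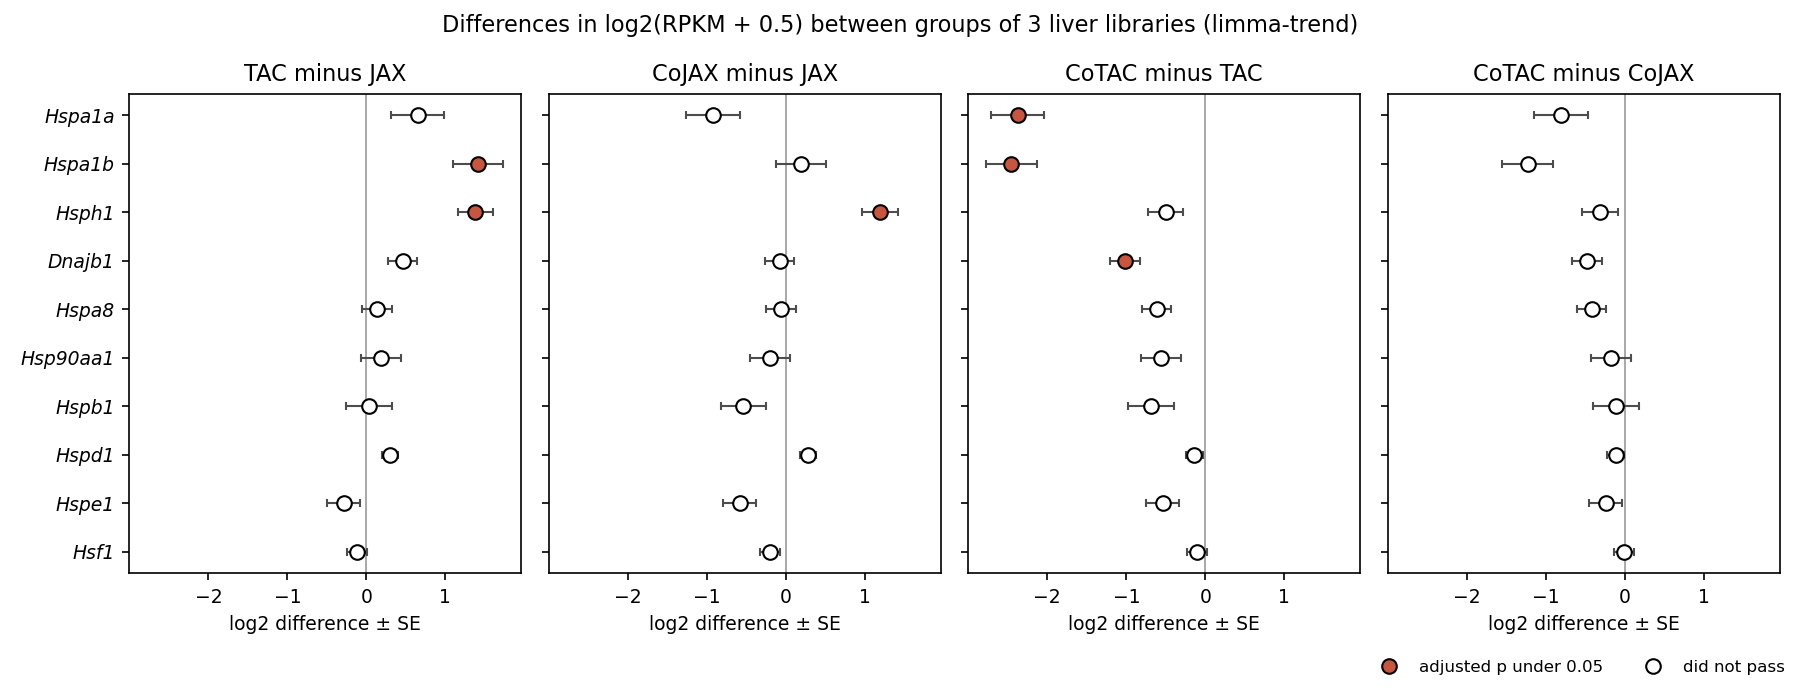
Differences in log2(RPKM + 0.5) with SE for the 10 genes in the 4 comparisons between groups of 3 libraries, from 1 limma-trend fit, with filled points where the adjusted p was under 0.05. Hspa1b and Hsph1 are filled between TAC and JAX, Hsph1 between CoJAX and JAX, Hspa1a, Hspa1b and Dnajb1 between CoTAC and TAC, and none between CoTAC and CoJAX.

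Between the housing partners, CoTAC against CoJAX, 0 of the 10 passed by limma, 4 had an unadjusted p under 0.05, and 0.0663% of all tested genes were called. Hspa1b was at -1.23 ± 0.32 (log2, SE; adjusted p = 0.237), 2.54 times lower in CoTAC on the means. Hspa1a was at -0.81 ± 0.34 (adjusted p = 0.433), Dnajb1 at -0.48 ± 0.19 (adjusted p = 0.412) and Hspa8 at -0.42 ± 0.19 (adjusted p = 0.456). In these 4 genes the groups did not overlap, 4 of 10 where 19.0% of all genes did not overlap. For Hspa1a the nearest libraries were CoJAX 2 at 0.701 RPKM and CoTAC 3 at 0.672 RPKM, an estimated 5 and 6 reads. Relative to Alb, Hspa8 did overlap, at 61.7% to 80.8% in CoJAX and 61.8% to 63.9% in CoTAC. All 10 differences were negative, with 7 to 10 negative under the alternatives, and their median was -0.28 against 0.01 for all genes.

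The vendor difference, Taconic minus Jackson, was set side by side for separate housing and for shared housing. For Hspa1b it was 1.42 apart and -1.23 together, for Hspa1a 0.65 and -0.81, for Dnajb1 0.46 and -0.48, and for Hsph1 1.38 and -0.31. The test of that change, the interaction, gave -2.65 ± 0.45 for Hspa1b (adjusted p = 0.205), -1.69 ± 0.31 for Hsph1 (adjusted p = 0.205), -1.45 ± 0.48 for Hspa1a (adjusted p = 0.298) and -0.94 ± 0.26 for Dnajb1 (adjusted p = 0.27). None of the 10 passed by limma, 5 had an unadjusted p under 0.05, and 0.0% of all tested genes were called, with 1358 at an unadjusted p under 0.05. A difference between housing conditions is therefore not established by this test for any member. For the mean of both vendor differences, 0 of the 10 passed, 1 had an unadjusted p under 0.05 (Hsph1, 0.53 ± 0.16, adjusted p = 0.0738), and 3.47% of all genes were called. The comparisons share libraries, JAX or TAC, with one another, so a high TAC library raises 1 difference and lowers the next.

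Other cytosolic chaperones and related genes, many of them known HSF1 targets, were read from a list of 22, all tested. The list also holds family members such as Hspa1l, Hspa2 and Hspb6, and induction by HSF1 was not tested for any of them. Between TAC and JAX 3 of the 22 were higher and 1 lower, where 4.09% of all tested genes were called. Dnaja4, an Hsp40, rose by 0.97 ± 0.24 (adjusted p = 0.0458), Bag3, which links Hsp70 to selective autophagy, by 0.80 ± 0.20 (adjusted p = 0.0458) and Chordc1, an Hsp90 co-chaperone, by 0.61 ± 0.15 (adjusted p = 0.0472). Hspb6, a small heat shock protein known from muscle, was lower at -0.75 ± 0.18 (adjusted p = 0.0409). Bag3 had its highest library in TAC 3, at 69.1 RPKM, as the Hsp70 pair did. Between CoTAC and TAC 1 of the 22 passed, against 0.647% of all genes. This was the Hsp40 Dnajb4, lower at -0.65 ± 0.13 (adjusted p = 0.0487), with a mean of 23.0 ± 2.80 against 36.4 ± 5.52 RPKM (SD, n = 3). Between CoJAX and JAX 3 were higher and 4 lower, a share near the 24.1% of all genes called there. Chordc1 rose by 0.71 ± 0.15 (adjusted p = 0.00983), while Hspa1l, an Hsp70 gene beside the inducible pair, was lower at -1.22 ± 0.30 (adjusted p = 0.0165) and the small heat shock gene Cryab at -0.95 ± 0.25 (adjusted p = 0.0209). Between CoTAC and CoJAX none of the 22 passed, and Dnajb4 was at -0.41 ± 0.13 (adjusted p = 0.343). The median difference of the list was 0.17 between TAC and JAX, 0.04 between CoJAX and JAX, -0.36 between CoTAC and TAC and -0.23 between CoTAC and CoJAX, with those of all genes between -0.01 and 0.01.

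Of the other heat shock factors and their binding proteins, 4 of 5 were tested. Hsbp1, which binds HSF1 trimers, was lower in CoJAX than in JAX at -0.62 ± 0.14 (adjusted p = 0.0115), and Hsbp1l1 was lower in CoJAX at -1.08 ± 0.36 (adjusted p = 0.0473) and in TAC at -1.66 ± 0.36 (adjusted p = 0.0331) than in JAX. Hsf2 and Hsf4 passed in none of the 4 comparisons. A list of 16 genes held constitutive co-chaperones and the Hsp70 family members Hspa13 and Hspa14. None of the 16 passed between TAC and JAX or between CoTAC and TAC. In CoJAX 2 were higher than in JAX, a share near the 12.7% of all genes called higher. These were Hspa13, higher by 1.24 ± 0.27 (adjusted p = 0.0102) and St13, the Hsp70-interacting protein Hip, by 0.42 ± 0.09 (adjusted p = 0.0105).

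**Figure D4:**
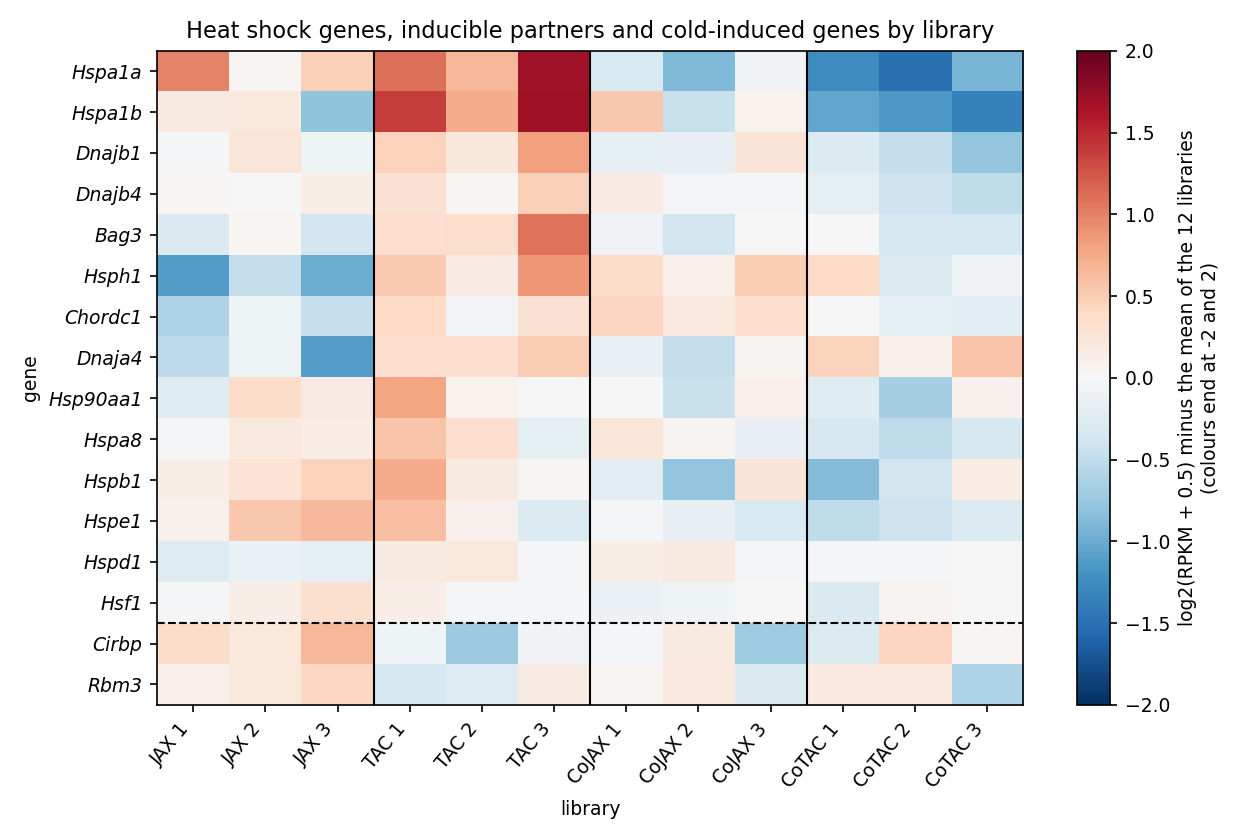
Deviation of log2(RPKM + 0.5) from the mean of the 12 libraries for the 10 genes, 4 HSF1-induced partners that passed in a comparison and, under the dashed line, the cold-induced Cirbp and Rbm3, with colours that end at -2 and 2. Hspa1a and Hspa1b are above their mean in the 3 TAC libraries and below it in the 3 CoTAC libraries, and Hsph1 is below its mean in the 3 JAX libraries.

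The 5 genes whose pattern over the 12 libraries was most like that of Hsph1 were Ube2g2, a ubiquitin-conjugating enzyme, with a Pearson r of 0.91, Atg4b, an autophagy protease, with 0.91 (0.905), Chordc1 with 0.90, Ankrd33b with 0.90 and Sec23b, a coat protein of vesicles leaving the ER, with 0.89. These are descriptions over 12 libraries in 4 groups that also differ in depth, chosen as the highest of all tested genes. Each of them had its lowest group mean in JAX, Ube2g2 at 54.2 RPKM against 82.8 to 92.7 RPKM in the other 3 groups. Among the members, Hspd1 was the most like Hsph1 at 0.69, Hspa1b was at 0.45, Dnajb1 at 0.38 and Hspa1a at 0.04.

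Body temperature, time of day and tissue makeup can also move chaperone RNA, and their markers were read beside the results. The cold-induced RNA-binding protein Cirbp, which falls as temperature rises, was 28.2, 25.4 and 34.8 RPKM in JAX and 20.5, 12.9 and 20.8 RPKM in TAC, with no overlap, and its difference of -0.71 ± 0.26 did not pass (adjusted p = 0.115). In CoJAX Cirbp was 21.4, 24.6 and 13.1 RPKM, also without overlap with JAX, and its difference of -0.60 ± 0.26 did not pass (adjusted p = 0.109). In CoTAC it was 17.9, 29.7 and 22.4 RPKM, which overlapped with TAC and with CoJAX. Rbm3, the other cold-induced gene, did not pass in any of the 4 comparisons either. The clock output gene Dbp varied widely within every group, at 77.5, 0.786 and 102 RPKM in JAX, 0.395, 0.595 and 94.1 in TAC, 4.90, 144 and 19.4 in CoJAX and 99.8, 105 and 2.96 in CoTAC. TAC 3, with the most Hspa1b, was at high Dbp, TAC 1 and TAC 2 were at low Dbp with 39.0 and 24.9 RPKM of Hspa1b, and the CoTAC libraries held 5.46 to 6.89 RPKM of Hspa1b at high and at low Dbp. None of 14 clock genes passed in a comparison of groups, and of 10 tested immediate early genes, which mark acute stress and handling, Klf6 alone passed, lower in CoJAX than in JAX (-0.71 ± 0.21, adjusted p = 0.0318).

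Markers of hepatocytes summed to 3744 to 4753 RPKM in JAX and to 2236 to 3580 RPKM in CoJAX, without overlap, and 1 of 6 was higher and 1 lower in CoJAX than in JAX, where 24.1% of all genes were called. Between the other groups none of the 6 passed. Alb, 1 of the 6, was at 914 to 1152 RPKM in JAX and at 512 to 884 RPKM in CoJAX. It lies close to the common upper level, which is lower in RPKM in deeper libraries. The sums therefore cannot be read as hepatocyte content. Markers of sinusoidal endothelial cells summed to between 124 and 181 RPKM in JAX, between 110 and 136 in TAC, between 114 and 162 in CoJAX, and to 48.8, 114 and 42.2 in CoTAC 1, 2 and 3. None of the 6 markers was at 0 in any library, and 0 of 6 passed between CoTAC and TAC, with all 6 negative. CoTAC 2, whose endothelial sum was within the range of the other groups, had 6.36 RPKM of Hspa1b and 0.290 RPKM of Hspa1a. In bulk tissue, fewer cells of a type and less RNA per cell cannot be told apart. Markers of Kupffer cells (5 of 6 listed) summed to between 126 and 278 RPKM in JAX, 184 and 240 in TAC, 138 and 178 in CoJAX and 149.9 and 202 in CoTAC. Markers of stellate cells summed to between 132 and 149 RPKM in JAX, 71.9 and 136 in TAC, 86.5 and 139.7 in CoJAX and 59.3 and 93.6 in CoTAC. At least 1 leukocyte marker was at 0 in some library of every group. The 6 leukocyte markers summed to 7.25 to 40.6 RPKM, the 5 cholangiocyte markers to 42.9 to 164 RPKM and the 3 listed erythroid markers to 129.7 to 185 RPKM over the 12 libraries, and of the markers of these 5 types 1 stellate gene was lower in CoJAX than in JAX and 1 leukocyte gene lower in TAC than in JAX. The part of temperature, clock phase, cell makeup and depth in the chaperone differences was not tested.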

How the data were processed

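RNA was extracted from liver with TRIzol, selected on poly(A) beads and made into libraries with a ThruPLEX kit, per the labels' protocols. The deposited table gives 1 RPKM column per library, reads scaled by gene length and mapped reads by the authors. The submitters' processing notes list Bowtie 1.0.0, Cuffdiff 2.1.1 and mm9. Whether counting used strand, which annotation it used and how reads with several matches were treated is not given in the sources used here.

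Of 23936 lines, 27 with a date in place of a symbol were left out. Log2(RPKM + 0.5) of genes that reached 1 RPKM in 3 or more libraries was fitted with limma-trend (limma 3.58.1, R 4.3.3), 4 groups, no block, with 6 contrasts, two-sided tests and Benjamini-Hochberg adjustment over 12058 genes. The fit was tested on simulated data. With 3 libraries against 3, an exact permutation test cannot go below 0.1. RPKM keep no counts, so read numbers are estimates from the steps of low values and transcript lengths of a GRCm38 annotation, and promoter windows come from RefSeq (GRCm38.p6). No 2 libraries held identical values. The alternatives were other pseudocounts, no filter, other scalings, a correction of high values, depth as a covariate, a replicate block, fits of 2 groups and removal of each library, and, added after seeing the data, a transcript length correction with and without depth.

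The members and lists were chosen with earlier results of these data known. Named were all 10 members in every contrast, up to 4 passing genes per list and contrast, or otherwise the 2 with the smallest p, and the 5 genes most like Hsph1. Of the genes that this rule names, 1 is not reported here. Cirbp, Dbp and Klf6 are shown under that rule or for their phase or temperature dependence, Dbp having been chosen after its values were seen.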

Additional observations from a re-analysis of the deposited data

How the results depend on the processing

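The number of heat shock members called moved with the processing in 5 of the 6 contrasts. Between TAC and JAX (2 called) it was 1 with the replicate block, 1 without the filter, 4 under quantile normalization, 0 with only these groups in the fit and 0 to 2 when 1 library was left out. Between CoJAX and JAX (1 called) it was 2 with the replicate block, 2 with small RNA genes left out, 2 with the correction of high values, 2 with the transcript length correction, 3 under quantile normalization, 2 with only these groups and 1 to 3 when 1 library was left out. Between CoTAC and TAC (3 called) it was 1 with depth as a covariate, 0 with only these groups and 0 to 5 when 1 library was left out. Between CoTAC and CoJAX it was 0 under every alternative. For the vendor average (0 called) it was 2 with small RNA genes left out, 1 under quantile normalization and 0 to 1 when 1 library was left out. For the interaction (0 called) it was 1 with depth as a covariate and 1 with the length correction and depth, Hspa8 in both (-0.63, adjusted p = 0.028, and -0.62, adjusted p = 0.0465). Other counts were within 1.5 times. Of 1420 values of members under alternatives, 1 reversed past a threshold. Hspa8 between CoJAX and JAX was 0.37 ± 0.06 (adjusted p = 0.00462) under quantile normalization, where it was -0.06, and the cause was not tested. Another 89 changed sign without a call on either side, and of 2676 values of other named genes 0 reversed.

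Calls over all genes moved as well. Between CoTAC and TAC 78 genes were called, and 6 with depth as a covariate, 11 with depth and length correction, 17 with the replicate block, 124 with small RNA genes left out, 1 with only these groups and 2 (without CoTAC 3) to 1530 (without TAC 3) when 1 library was left out. Between TAC and JAX 493 were called, and 132 with depth, 123 with depth and length correction, 63 with the block, 328 without the filter, 290 with the length correction, 810 under quantile normalization, 13 with only these groups and 11 (without TAC 2) to 2113 (without TAC 1) with 1 left out. Between CoJAX and JAX 2911 were called, and 39 with depth, 36 with depth and length correction and 1264 (without CoJAX 2) to 3431 (without TAC 1) with 1 left out. Between CoTAC and CoJAX 8 were called, and 5 with depth, 4 with depth and length correction, 1 with only these groups and 2 to 229 (without CoTAC 2) with 1 left out. For the vendor average 418 were called, and 72 with the block, 89 with depth, 183 without the filter, 200 with the length correction, 72 with depth and length correction and 44 to 1905 with 1 left out. For the interaction 0 were called, and 3 without the filter, 2 with small RNA genes left out, 2 with depth, 4 with depth and length correction and 0 to 46 with 1 left out. Leaving out small RNA genes moved the median of all genes, -0.01 to 0.01 before, to 0.14 between TAC and JAX, 0.23 between CoJAX and JAX, 0.21 between CoTAC and TAC and 0.13 between CoTAC and CoJAX, and turned the split of calls between CoTAC and TAC from 45 higher and 33 lower to 108 higher and 16 lower, between CoJAX and JAX from 1529 and 1382 to 2457 and 666, and between TAC and JAX from 287 and 206 to 412 and 127. Libraries with the same number did not deviate together over all genes (correlations of -0.17 to 0.15). A weak pairing by number need not show in these correlations, and the labels give no cage. With the replicate block Hspa1a passed between CoJAX and JAX (-0.92, adjusted p = 0.0364), Hspa1b missed between TAC and JAX (adjusted p = 0.0648) and Dnajb1 missed between CoTAC and TAC (adjusted p = 0.0849). Few reads limit Hspa1a in CoTAC, and compression near the upper level limits Hspa8 and Hspe1.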

Other observations

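Chaperones of other compartments were read from lists alongside the cytosolic ones. In the endoplasmic reticulum, 1 of 13 chaperones was higher in TAC than in JAX, Hyou1, the Hsp110 of that compartment, by 1.11 ± 0.28 (log2, SE; adjusted p = 0.0493), where 2.38% of all genes were called higher. Between CoJAX and JAX 5 of 13 were higher, where 12.7% of all genes were called higher. Among these were Hyou1 (1.28 ± 0.28, adjusted p = 0.0108), the Hsp40 genes Dnajb9 (1.12 ± 0.32, adjusted p = 0.0282) and Dnajc3 (0.57 ± 0.17, adjusted p = 0.0309) and the lectin chaperone Canx (0.40 ± 0.11, adjusted p = 0.0268). None of the 13 passed between CoTAC and TAC, where 0.647% of all genes were called. Mean Hyou1 was 45.1 ± 9.23 RPKM in JAX, 97.0 ± 11.0 in TAC, 110 ± 16.1 in CoJAX and 118 ± 49.3 in CoTAC (SD, n = 3), so that JAX was the low group, as for Hsph1.

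In mitochondria, 5 of 11 chaperones and proteases were higher and 1 lower in CoJAX than in JAX, among them the Hsp40 Dnaja3 (0.49 ± 0.10, adjusted p = 0.00733), the proteases Yme1l1 (0.46 ± 0.11, adjusted p = 0.0123) and Afg3l2 (0.49 ± 0.12, adjusted p = 0.0133) and the protease Lonp1 (0.43 ± 0.10, adjusted p = 0.0138). Of the 8 subunits of the cytosolic chaperonin TRiC, which folds actin and tubulin, 3 were higher in CoJAX, Cct6a by 0.38 ± 0.09 (adjusted p = 0.0136), Cct5 by 0.35 ± 0.09 (adjusted p = 0.0212) and Tcp1 by 0.29 ± 0.09 (adjusted p = 0.0373). None of the 11 or of the 8 passed in the other 3 comparisons of groups. In the contrast of CoJAX and JAX 24.1% of all genes were called, and these shares were not tested against it.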
